A study of Mus musculus with 12 samples.

Results

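The cytosolic ribosome is built from a small 40S and a large 60S subunit, and the genes for its proteins were followed here through 1 comparison, the response to an adipocyte knockout in females against that in males. Members were the protein-coding genes whose symbol starts with Rpl or Rps and goes on with a digit, together with Rplp0, Rplp1, Rplp2 and Rpsa, leaving out the ribosomal S6 kinases. The rule found 88 genes, of 16738 in the white fat table and 15363 in the brown fat table, and the same 88 were present in both. Of these, 76 form the core set (42 of the 60S subunit, 31 of the 40S subunit and 3 of the P stalk). The other 12 were 6 paralogs (Rpl3l, Rpl7l1, Rpl22l1, Rpl36al, Rpl39l and Rps27l), 5 intronless copies that the table types as protein-coding (Rpl10-ps3, Rps18-ps5, Rpl9-ps6, Rpl36a-ps1 and Rps27rt) and Rps19bp1. Rps19bp1 meets the symbol pattern but encodes a protein that binds Rps19, not a part of the ribosome.

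The study sequenced RNA of inguinal white fat from C57BL/6 mice fed a high-fat diet (HFD) and housed at room temperature. WT mice were compared with Adipo-NDUFS4 KO mice, which lack this accessory subunit of respiratory complex I in adipocytes, in 4 groups of 3 libraries: males and females of WT, males and females of KO. The sources used here give neither the promoter that drives the deletion nor the age of the mice, and nothing in the labels says whether the 3 libraries of a group are 3 animals, so each p-value measures the spread between libraries. Diet, temperature and strain were shared by all 4 groups.

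Every gene value below comes from the authors' deposited table of its depot. The quantity is the log2 interaction, which takes the log2 ratio of KO to WT in females and subtracts the same ratio in males, in the order in which the table's name gives the sexes. A value of -1 means that the KO/WT ratio in females was 50% of that in males. It does not tell in which sex the gene moved, because the effects within a sex were not analysed here, nor were values of single libraries. Errors after ± are standard errors of the authors' limma fit over all libraries of a depot, and adjusted p is limma's p with Benjamini-Hochberg adjustment over all genes of the table. A gene is said to have passed the test where adjusted p was under 0.05.

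Ribosomal proteins are made in near-equal numbers, since each ribosome holds 1 copy of nearly all of them. Their mRNAs are among the most abundant of a cell and mostly begin with a C followed by a run of pyrimidines, the terminal oligopyrimidine (TOP) motif, through which mTOR signalling and the protein Larp1 set their translation and stability. A few genes have a close relative that can take the place of the parent protein in the ribosome, often in 1 tissue, such as Rpl3l in striated muscle or Rpl39l in the testis. Many have processed pseudogenes, whose copies of the mRNA sequence make short reads hard to place.

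The letters at transcription starts are shown for members at both ends of the white fat values and for one paralog, because the TOP motif is what most of these mRNAs share. Each line holds 20 bases before and 20 bases from the annotated start, read on the strand of the gene, from the RefSeq promoter table of GRCm38.p6, and capitals mark a C within 5 bases of the start with the at least 5 pyrimidines that follow it. The windows are Rps27 at chr3:90213629-90213668 (minus strand), Rps18 at chr17:33955646-33955685 (minus), Rpl23 at chr11:97782420-97782459 (minus), Rpl15 at chr14:18270967-18271006 (minus), Rps6 at chr4:86857348-86857387 (minus) and Rpl39l at chr16:10170208-10170247 (plus).
Rps27: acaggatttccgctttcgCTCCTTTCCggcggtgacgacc
Rps18: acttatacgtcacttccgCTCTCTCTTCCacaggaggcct
Rpl23: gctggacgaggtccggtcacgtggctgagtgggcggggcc
Rpl15: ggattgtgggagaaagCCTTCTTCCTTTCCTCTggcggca
Rps6: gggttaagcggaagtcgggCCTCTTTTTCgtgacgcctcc
Rpl39l: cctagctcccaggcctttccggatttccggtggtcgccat
The run was found at 26 of 66 starts of core members that the table holds (39.4%), against 3352 of 32851 starts of all genes (10.2%). Rps27 and Rps18, among the lowest in white fat, have it, and so do Rpl15 and Rps6, which did not follow the rest. Rpl23, also among the lowest, has no such run in this window. Beyond the windows shown, Rpl35, Rpl27a and Rps2, which were high for the core in white fat, have the run. Of further low members Rpl12 has it, while for Rps16, Rps7 and Rpl5 none begins within 5 bases of the annotated start. The search depends on that annotated start, so a window without a run does not show that the mRNA lacks the motif. Whether the run goes with the interaction was not tested.

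In white fat the ribosomal proteins lay below 0 almost as one block. In the authors' deposited table, log2 interactions were below 0 for 82 of 88 members, with a median of -1.16, which corresponds to a KO/WT ratio in females 0.449 times that in males. In all, 54 members passed the test, each of them below 0, which is 61.4% of members beside 3.69% of all genes called below 0 and 4.75% called in either direction. No member was called above 0, where the share of all genes was 1.06%. At an unadjusted p under 0.05 there were 74 members, beside 24.5% of all genes. The median of all genes was 0.13, so relative to it the median of the members was -1.29.

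The core set was tighter than the whole. Its 76 genes had a median of -1.20 and a standard deviation over genes of 0.43, against a median standard error of 0.28 for a single gene. All 54 members that passed the test were core members, and 75 of the 76 were below 0, the exception being Rps6. The 66 core members whose mean log2 expression reached 6 were below 0 without exception, between -2.04 and -0.45, and 52 of them passed. The plot of the members in order shows this block and the few genes to its right.

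**Figure D1:**
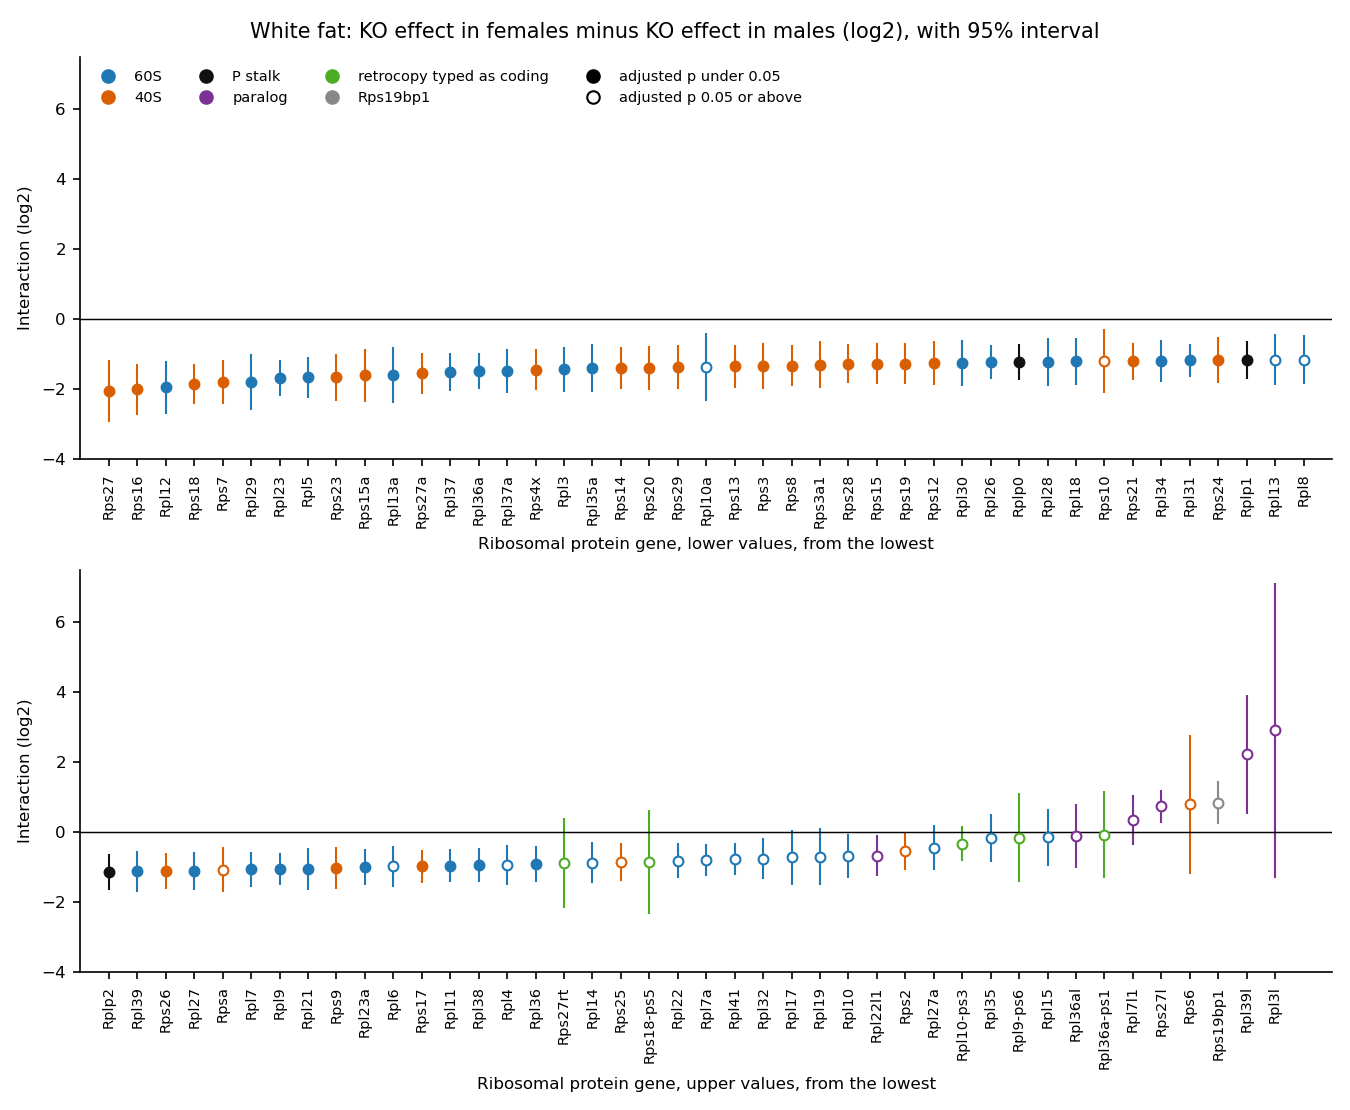
Log2 interaction of 85 of the 88 members in white fat from the authors' deposited table, in order from the lowest, with its 95% interval on the vertical axis; filled points have an adjusted p under 0.05 and colours give the class of the member. The 52 filled points are all below 0, and the 6 members above 0 (Rpl7l1, Rps27l, Rps6, Rps19bp1, Rpl39l and Rpl3l) are open points.

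By subunit, 26 of 31 genes of the 40S passed (median -1.31), as did 25 of 42 of the 60S (median -1.11) and all 3 of the P stalk (median -1.16). Whether the subunits differ from each other was not tested. The P stalk is the lateral arm of the 60S subunit that recruits the elongation factors. Its base protein Rplp0 stood at -1.23 ± 0.24 (adjusted p = 0.0355), Rplp1 at -1.16 ± 0.25 (adjusted p = 0.0357) and Rplp2 at -1.15 ± 0.24 (adjusted p = 0.0357) in the authors' deposited limma table, so the 3 subunits of the stalk lay closer together than 1 standard error. Rpl12, which lies at the base of the stalk, was lower, at -1.95 ± 0.35 (adjusted p = 0.0355).

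The 5 smallest p-values among members belonged to Rpl23, Rps18, Rps7, Rpl36a and Rpl5. In the authors' deposited limma table Rpl23 stood at -1.68 ± 0.24, Rps18 at -1.85 ± 0.27, Rps7 at -1.80 ± 0.29, Rpl36a at -1.48 ± 0.24 and Rpl5 at -1.66 ± 0.27, each with an adjusted p of 0.0355, the smallest in the table. Rps16 stood lower, at -2.0 ± 0.34, with the same adjusted p. Rps16 and Rps18 sit in the head of the 40S subunit. Rpl5, Rpl23 and Rps7 can bind Mdm2, the ubiquitin ligase of p53, when ribosome assembly fails, and Rpl5 forms the 5S particle of the 60S subunit with Rpl11. Rpl11 was nearer to 0 than its partner, at -0.97 ± 0.22 (adjusted p = 0.0357). The lowest value of all members was that of Rps27, a zinc-binding protein of the 40S, at -2.04 ± 0.41 (95% interval -2.92 to -1.15, adjusted p = 0.0357).

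The 5 members with the highest mean expression were Rplp1, Rps29, Rps20, Rps12 and Rps21, and all passed. Rps29 stood at -1.37 ± 0.29, Rps20 at -1.39 ± 0.29, Rps12 at -1.26 ± 0.29 and Rps21 at -1.20 ± 0.24 in the authors' deposited table. Per kilobase of transcript, the highest mean log2 level in white fat was that of Rps29 (11.3), followed by Rps21 (11.2) and Rplp1 (11.02), and the lowest of a core member was that of Rps6 (2.84). This ranking takes the deposited means as not yet scaled by transcript length, which the sources used here do not state. Rps27a, whose protein is made as a fusion with ubiquitin, stood at -1.54 ± 0.27 (limma adjusted p = 0.0355). Rpsa, a 40S protein also known as the laminin receptor, had -1.08 ± 0.30 and an adjusted p of 0.0528.

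The 22 core members that did not pass were 17 of the 60S (among them Rpl10, Rpl10a, Rpl13, Rpl14, Rpl15, Rpl17, Rpl19, Rpl22, Rpl27a, Rpl32 and Rpl35) and 5 of the 40S (Rps10, Rps2, Rps25, Rps6 and Rpsa). With a threshold of 0.10 in place of 0.05, 67 members passed, beside 12.1% of all genes, 65 below 0 and 2 above. The 4 members on chromosome X (Rpl10, Rpl36a, Rpl39 and Rps4x) had a median of -1.28, and 3 of them passed, so they lay within the range of the autosomal members. Over all 509 genes of chromosome X the median was 0.16.

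Among the proteins of the ribosome whose symbols fall outside the pattern, Fau and Rack1 were measured. Fau, which encodes a 40S protein fused to a ubiquitin-like domain, stood at -1.21 ± 0.30 (adjusted p = 0.0416), and Rack1, a signalling scaffold on the 40S head, at -1.38 ± 0.28 (adjusted p = 0.0357) in the authors' deposited limma table. Both lay within the range of the core set.

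A few core members stood away from the block. Rps6, the 40S protein phosphorylated by the S6 kinases, was at 0.79 ± 0.92 in the authors' deposited table, with a 95% interval from -1.20 to 2.78 and a mean log2 expression of 2.65, the lowest of the core. Rpl15 stood at -0.16 ± 0.38, Rpl35 at -0.18 ± 0.32 and Rpl27a at -0.45 ± 0.29. The interval of Rpl27a (-1.08 to 0.19) did not reach the core median of -1.20, and neither did those of Rpl35 (-0.86 to 0.50) and Rpl15 (-0.98 to 0.67), while that of Rps6 just missed it. Rps2 was also high for the core, at -0.54 ± 0.25.

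Rps6, Rpl15 and Rpl35 also had a low mean log2 expression for the core. Of the 10 core members with a mean log2 expression under 6 (among them Rps6, Rps10, Rpl10a, Rpl15, Rpl19 and Rpl35), 9 were below 0 and 2 passed, Rpl13a at -1.59 ± 0.37 (limma adjusted p = 0.0374) and Rpl29 at -1.79 ± 0.37 (limma adjusted p = 0.0357). In GENCODE M21 (GRCm38) between 0 and 11.4% of the 50-base words in the coding sequences of these 10 genes occur in no other annotated gene. The sources used here do not say how the authors' counting treated reads that match several genes, and its part in these levels was not tested. Shared sequence is not limited to members with a low mean. The median share of unique words over the 88 was 9.54%. For Rps27, Rps16 and Rpl12, the 3 lowest members, it was 0, so their values may hold reads of near-identical copies. The 10 core members with at least 50% unique words were below 0 without exception, 6 passed, and their median of -1.18 was close to the -1.20 of the other 66. Over the 76 core members, the interaction and the share of unique words had a Pearson r of -0.01 and a Spearman rho of -0.06, which are given as a description only, since all genes share the same libraries.

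**Figure D2:**
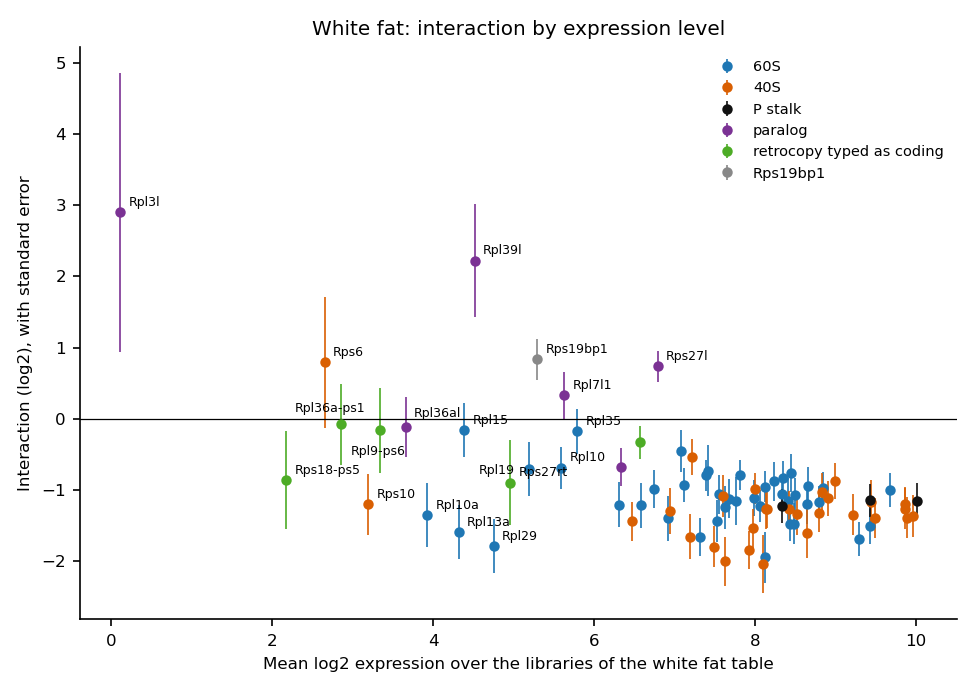
Log2 interaction of 85 of the 88 members in white fat (vertical axis, bars show the standard error of the authors' fit) against the mean log2 expression over the libraries of the white fat table (horizontal axis), coloured by class. Members with a mean below 6 are labelled, together with Rps27l; all core members at or above 6 are below 0, while the members above 0 have means between 0.12 (Rpl3l) and 6.79 (Rps27l).

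Most paralogs lay above their parents in white fat, with the pair of Rpl22 and Rpl22l1 close together. None of the 6 passed the test in white fat and their median was 0.53, with 4 of 6 above 0, while their 6 parent genes lay between -2.04 and -0.83 and 5 of these passed. To show how far apart a pair is in sequence, the whole coding sequences of Rpl39 (chromosome X) and Rpl39l (chromosome 16) are printed from GENCODE M21 on GRCm38, positions 1 to 156 counted from the start codon, and then positions 1 to 60 of Rps27 (chromosome 3), its copy Rps27rt (chromosome 9) and its paralog Rps27l (chromosome 9). Capitals mark bases that differ from the parent gene.
Rpl39: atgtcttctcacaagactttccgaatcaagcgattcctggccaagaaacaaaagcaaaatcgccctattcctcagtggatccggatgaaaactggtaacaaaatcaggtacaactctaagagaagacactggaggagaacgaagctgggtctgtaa
Rpl39l: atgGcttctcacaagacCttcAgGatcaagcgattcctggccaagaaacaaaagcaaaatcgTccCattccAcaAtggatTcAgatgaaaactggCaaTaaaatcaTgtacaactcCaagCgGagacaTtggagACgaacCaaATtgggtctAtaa
Rps27: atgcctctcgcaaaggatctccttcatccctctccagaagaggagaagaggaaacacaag
Rps27rt: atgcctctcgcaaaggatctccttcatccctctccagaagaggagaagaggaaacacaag
Rps27l: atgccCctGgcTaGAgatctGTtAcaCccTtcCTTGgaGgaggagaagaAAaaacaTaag
Rpl39l differs from Rpl39 at 23 of 156 bases and Rps27l from Rps27 at 18 of the 60 shown, while Rps27rt equals Rps27 over its whole coding sequence.

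Rpl39 lines the exit tunnel for the growing peptide. It stood at -1.13 ± 0.27 (adjusted p = 0.0399) in the authors' deposited limma table, and Rpl39l, 85.3% identical over the coding sequence, at 2.22 ± 0.79 (95% interval 0.52 to 3.92, adjusted p = 0.109). Rpl39l had a mean log2 expression of 4.52, against 7.68 for Rpl39.

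Rps27 and Rps27l lay further apart than Rpl22 and Rpl22l1, the other pair in which both mean log2 expressions exceeded 6. The share of unique 50-base words was 0 for Rps27 and 51.0% for Rps27l, so the value of Rps27 may hold reads of its copies. Its standard error of 0.41 was the largest of the core members whose mean reached 6. Rps27l, which p53 is known to induce, stood at 0.74 ± 0.22 (95% interval 0.26 to 1.21, adjusted p = 0.0657) in the authors' deposited limma table, and Rps27 at -2.04, so that the intervals of the pair did not overlap. The mean log2 expression of Rps27l was 6.79, and 76.1% of the aligned coding bases equal those of Rps27. Rps27l itself did not pass the test.

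Rpl3 passed at -1.44 ± 0.30 (adjusted p = 0.0357) in the authors' deposited limma table. Its striated muscle form Rpl3l (74.9% identical) was at 2.90 ± 1.96, with an interval from -1.32 to 7.12 and a mean log2 expression of 0.12, the lowest of all members. The 10 skeletal muscle genes of a marker list all lay above 0 in the same table (median 3.75, none passed), and their part in the value of Rpl3l was not tested.

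Rpl7 stood at -1.07 ± 0.23 (adjusted p = 0.0357) and Rpl7l1 (64.8% identical) at 0.33 ± 0.33 (adjusted p = 0.563) in the authors' deposited limma table. Rpl36a on chromosome X stood at -1.48 ± 0.24 (adjusted p = 0.0355), and its autosomal relative Rpl36al (87.9% identical) at -0.12 ± 0.42 (adjusted p = 0.886). The interval of Rpl36al ran from -1.02 to 0.79 and that of Rpl36a from -2.0 to -0.96, so they overlapped slightly.

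Rpl22 and Rpl22l1 were the closest of the pairs. Rpl22 stood at -0.83 ± 0.23 (adjusted p = 0.0559) and Rpl22l1 (72.7% identical) at -0.68 ± 0.27 (adjusted p = 0.142) in the authors' deposited limma table. Neither passed, and they lay 0.15 apart, less than either standard error. Of the other two listed pairs, Rpl10 stood at -0.69 ± 0.29 (adjusted p = 0.171), and its relative Rpl10l was not analysed here. Rps4x, the X-linked 40S protein, stood at -1.44 ± 0.28 (adjusted p = 0.0355), while Rps4l, which the table types as a transcribed processed pseudogene and which is therefore no member, stood at 0.88 ± 0.33 (adjusted p = 0.121).

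**Figure D3:**
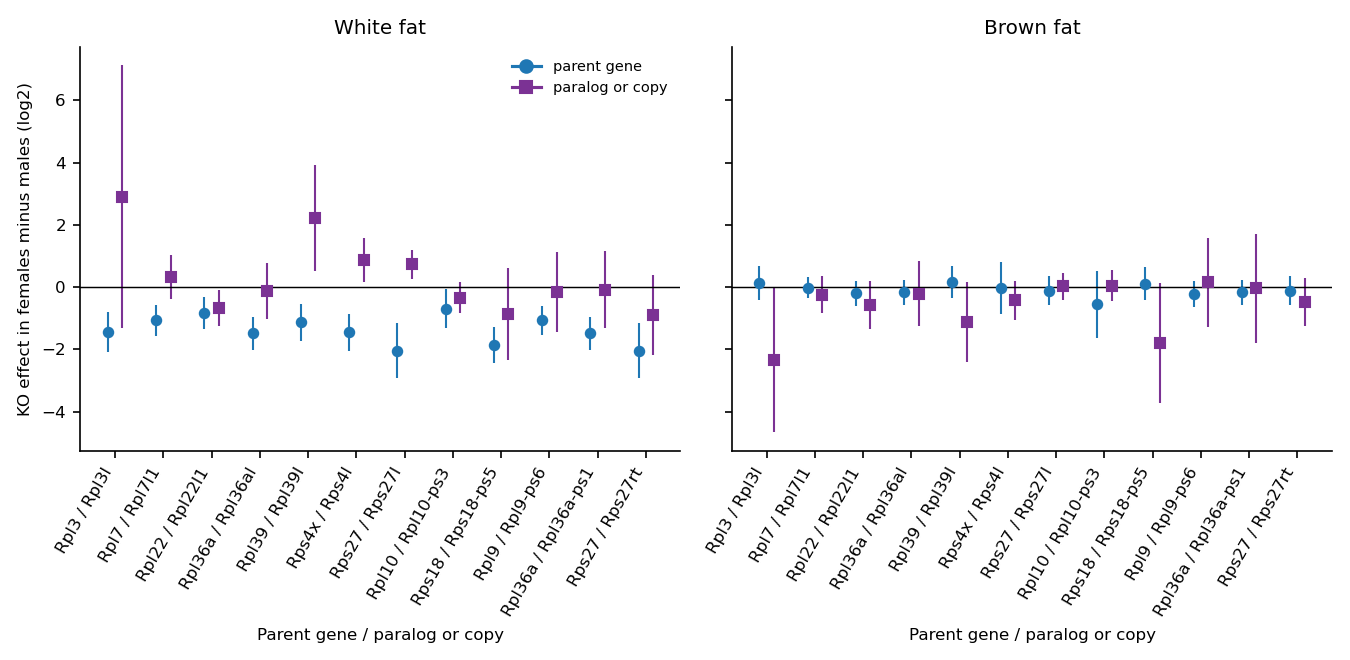
Log2 interaction of each parent gene (circles) and its paralog or copy (squares) in white fat (left) and brown fat (right) from the authors' deposited tables, with 95% intervals. Rps4l is drawn although it is no member; in white fat the squares of Rps27l, Rps4l and Rpl39l lie above 0 with intervals that do not reach it, while their parents lie below 0.

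The 5 intronless copies lay below 0 in white fat, and none passed the test (median -0.33). Their coding sequences are 97.8% to 100% identical to those of the parents, so many reads within the coding sequence are hard to assign, and their values are uncertain. The share of unique 50-base words was 0 for Rpl10-ps3 and Rps27rt. It was 9.43% for Rpl9-ps6, 14.9% for Rps18-ps5 and 43.0% for Rpl36a-ps1. Rps27rt stood at -0.90 ± 0.60, Rps18-ps5 at -0.86 ± 0.69, Rpl10-ps3 at -0.33 ± 0.23, Rpl9-ps6 at -0.16 ± 0.59 and Rpl36a-ps1 at -0.08 ± 0.57 in the authors' deposited table. Rpl36a-ps1 was more than 3 scaled median absolute deviations above the members' median, as were the 6 members above 0. Rpl10-ps3 had a mean log2 expression of 6.58 and its parent Rpl10 one of 5.59, although their coding sequences are the same. The rows named or described as ribosomal protein pseudogenes numbered 73 in white fat, with a median of -0.31 and none passing. Of the 10 whose mean log2 expression reached 4, 9 were below 0 (median -0.52). In brown fat 74 such pseudogene rows had a similar median of -0.32, and the 6 that reached 4 there had one of -0.07. Rps19bp1, which shares only the symbol pattern, stood at 0.83 ± 0.28 (limma adjusted p = 0.0959).

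In brown fat the same members were centred on 0. In the authors' deposited table the interaction was below 0 for 45 and above 0 for 43, with a median of -0.01, and 0 of 88 passed limma's test, beside 0.013% of all genes. At an unadjusted p under 0.05 there were 4 members, beside 6.51% of all genes. These 4 were Rps14 at -0.35 ± 0.13 (adjusted p = 0.683 by limma), Rps2 at 0.60 ± 0.28, Rpl26 at -0.38 ± 0.18 and Rpl3l at -2.33 ± 1.14. Errors were not larger than in white fat: the median standard error of a member was 0.22, against 0.28. The abundant members were close to 0, with Rplp1 at 0.01 ± 0.13, Rps29 at 0.01 ± 0.12, Rpl23a at 0.02 ± 0.11 and Rps20 at -0.14 ± 0.13.

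The members far from the rest in brown fat again had a low mean log2 expression for members. Not every member with a low mean stood apart, as Rpl29 (mean 2.88) was at 0.36 ± 0.75. Rps6 stood at -1.78 ± 1.09, Rps18-ps5 at -1.78 ± 0.95, Rpl39l at -1.12 ± 0.63, Rpl19 at -0.83 ± 0.43 and Rps10 at -0.72 ± 0.79 in the authors' deposited table. On the other side were Rpl15 at 1.39 ± 0.72 and Rpl10a at 1.28 ± 0.82. None of the 88 had a limma adjusted p under 0.683. The paralogs Rpl3l and Rpl39l, above 0 in white fat, were thus below 0 in brown fat, and Rps27l was at 0.02 ± 0.21. Rpl3l was barely expressed, with a mean log2 expression of 0.08 in brown fat, and its white fat interval included 0. The interval of Rpl39l in brown fat (-2.40 to 0.17) included 0 as well. The 10 skeletal muscle markers also lay below 0 in brown fat (median -3.40, none passed), and their part in the value of Rpl3l was not tested. Rps27a stood at 0.38 ± 0.24, Rpsa at 0.30 ± 0.22, Rpl5 at 0.13 ± 0.28, Rplp2 at 0.08 ± 0.14, Rpl11 at -0.03 ± 0.16 and Rplp0 at -0.05 ± 0.21.

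The difference between the depots was tested gene by gene over the 14687 genes in both tables. It was below 0 (white fat lower) for 79 of 88 members, with a median of -1.16, while the median over all genes was 0.19. In all, 12 members passed at an adjusted p under 0.05, each with white fat below brown fat. They make up 12 of the 34 genes called among all genes (0.231% called in either direction, 0.157% with white fat lower). At an unadjusted p under 0.05 there were 70 members, beside 15.6% of all genes. The 5 smallest p belonged to Rpl23 (-1.80 ± 0.29, adjusted p = 0.0108 from the limma errors of both tables), Rps16 (-2.42 ± 0.45), Rps18 (-1.95 ± 0.37), Rps27a (-1.92 ± 0.36) and Rps7 (-1.84 ± 0.36). The test takes the tables as independent, and with the smaller of the degrees of freedom of both tables (13.4) none of the 12 passed, the smallest adjusted p being 0.205.

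For the pairs of Rpl39, Rps27, Rpl3, Rpl7 and Rpl36a, the depot difference had the opposite sign in parent and paralog. It was 3.34 ± 1.01 for Rpl39l (adjusted p = 0.117 from the limma errors) and -1.30 ± 0.37 for Rpl39 (adjusted p = 0.0910). It was 0.71 ± 0.30 for Rps27l (adjusted p = 0.245) and -1.92 ± 0.47 for Rps27 (adjusted p = 0.0761). None of these 4 differences passed. The difference was 5.23 ± 2.27 for Rpl3l and -1.58 ± 0.40 for Rpl3. For Rpl7l1 it was 0.57 ± 0.45 and for Rpl7 -1.05 ± 0.28. For Rpl36al it was 0.09 ± 0.66 and for Rpl36a -1.31 ± 0.31. Rpl22 (-0.63 ± 0.30) and Rpl22l1 (-0.10 ± 0.47) shared a sign. These differences did not pass either.

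**Figure D4:**
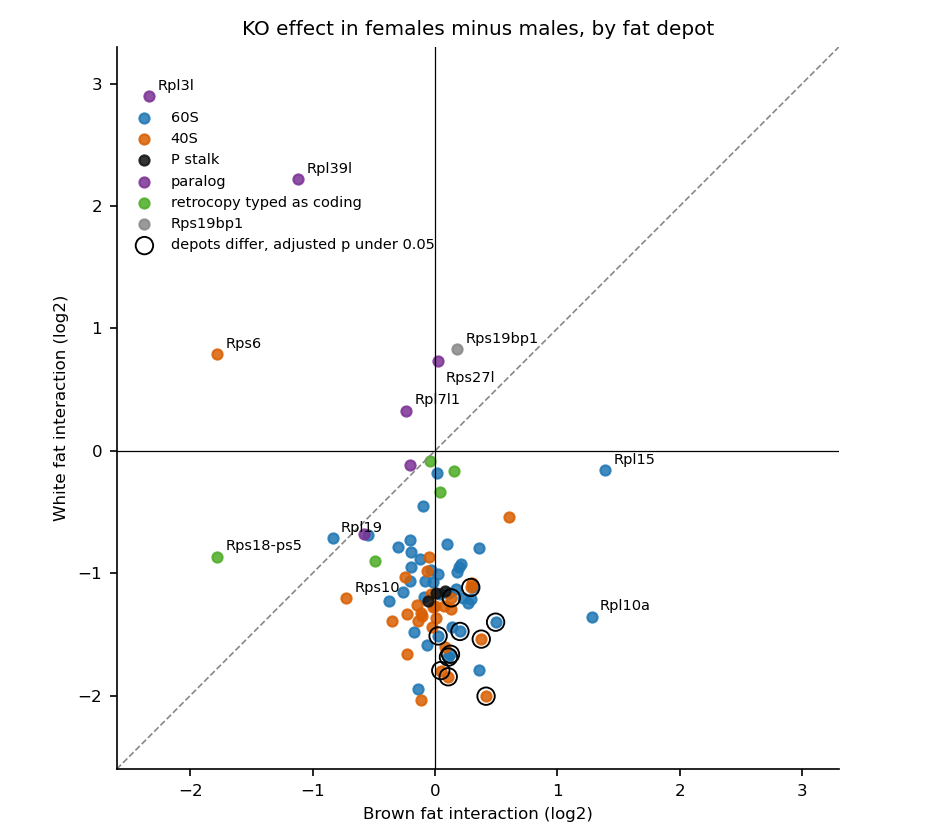
Log2 interaction of 85 of the 88 members in white fat (vertical axis) against brown fat (horizontal axis) from the authors' deposited tables, coloured by class; the dashed line marks equal values and circles mark 11 of the 12 members whose depots differed at an adjusted p under 0.05 with Welch-Satterthwaite degrees of freedom. The core members form a cloud near 0 on the brown fat axis and near -1.2 on the white fat axis, with Rps6, Rpl3l and Rpl39l at the upper left.

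The other genes of the translation pathway stood nearer to 0 than the ribosomal proteins in white fat. Of 21 elongation factors and other mRNAs with a TOP motif, 15 lay below 0 (median -0.46) and 3 passed, all below 0. These were Npm1, a nucleolar chaperone, at -1.30 ± 0.27, Naca, which binds growing peptides at the ribosome, at -0.84 ± 0.19, and Eef1b2, an exchange factor of elongation factor 1A, at -1.16 ± 0.27 in the authors' deposited table. Of 35 ribosome assembly factors none passed (limma, with 6 at an unadjusted p under 0.05), and their median was -0.13. The 3 with the smallest p were Riok2 at 0.84 ± 0.31, Sbds at 0.67 ± 0.28 and Nop56 at -0.87 ± 0.36. Of 13 measured RNA polymerase I genes, which make the ribosomal RNA, none passed (2 at an unadjusted p under 0.05), with a median of -0.32 and the smallest p for Polr1f at -0.82 ± 0.27, Polr1c at -0.77 ± 0.26 and Taf1d at -0.60 ± 0.30. Of 17 genes of the growth control of TOP mRNAs, 13 lay above 0 (median 0.39) and none passed (7 at an unadjusted p under 0.05), among them Max at -0.74 ± 0.21, Mtor, the kinase of the pathway, at 1.08 ± 0.41 and Rheb, its activator, at 0.66 ± 0.25. Genes outside the members whose mean log2 expression reached 6 numbered 3411 and had a median of 0.20. Of these, 58 passed below 0 (1.70%) and 76 passed above 0.

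Markers of lymphocytes also lay below 0 in white fat. All 16 T cell markers lay below 0 in the authors' deposited table (median -6.57, 12 passed), between -9.15 and -1.61. All 15 B cell markers did too (median -8.28, 8 passed), between -11.43 and -0.35. The value nearest 0 was that of Ighm (limma adjusted p = 0.757), which had the highest mean log2 expression of the B cell markers, 8.66. Blk, Cxcr5 and Cd22 had means of 0.56, 0.79 and 1.78. The smallest p belonged to Zap70 at -8.90 ± 1.65, Cd5 at -9.15 ± 1.77 and Lat at -8.38 ± 1.83 among the T cell markers and to Cxcr5 at -8.28 ± 1.75, Blk at -8.00 ± 1.73 and Cd22 at -11.07 ± 2.44 among the B cell markers. Mean log2 expression ran from 0.46 to 6.32 over the T cell markers and from -0.62 to 8.66 over the B cell markers. The lowest mean of any gene in white fat was -1.66. Markers with means near 0 thus lay close to the lower limit of the data, and the size of their interactions is uncertain. In brown fat, where the members were centred on 0, 6 of the 16 T cell markers were measured (median 0.18) and 9 of the 15 B cell markers (median -0.32). The part of the lymphocytes in the values of the ribosomal proteins was not tested. In such bulk samples fewer cells of a type, less RNA per cell and uneven sampling of the tissue cannot be told apart.

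Markers of other cell types lay nearer to 0 or above it. The 10 markers of mature adipocytes, with mean log2 levels from 6.40 to 12.80, had a median of 0.37 in white fat and none passed. The 9 macrophage markers had a median of -0.61 and none passed, with Lyz2 at -1.02 ± 0.49, Cd68 at -1.08 ± 0.63 and Ctss at -1.14 ± 0.67. Of the 9 thermogenic genes, all above 0 (median 3.20), Kcnk3 passed at 3.20 ± 0.81 (limma adjusted p = 0.0438). Endothelial markers had a median of 0.55, fibroblast and preadipocyte markers one of 0.55 and 7 measured mammary epithelial markers one of 1.74. Ndufs4, the targeted gene, had an interaction of 0.89 ± 0.38 (limma adjusted p = 0.169) in white fat and -0.10 ± 0.14 in brown fat, which compares the sexes and is no check of the deletion itself.

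**Figure D5:**
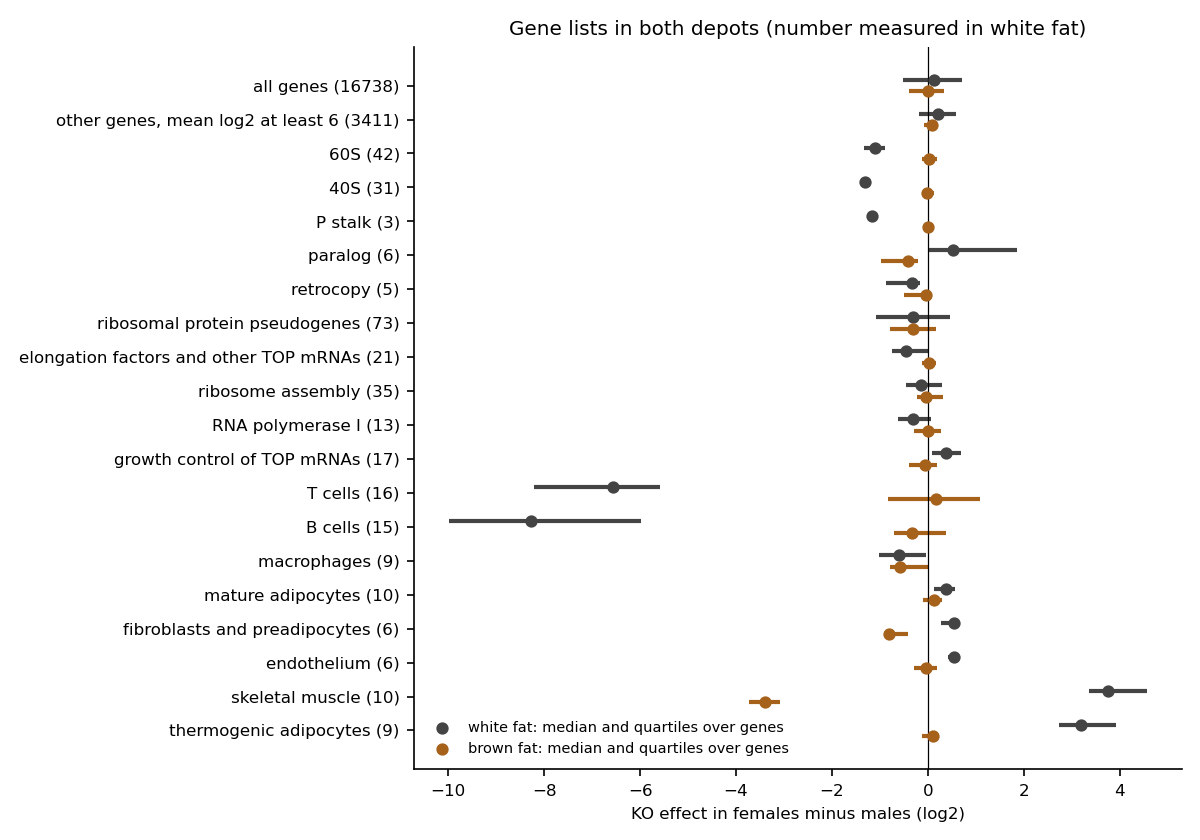
Median and quartiles over genes of the log2 interaction in white fat (grey) and brown fat (brown) for the classes of members and the other gene lists, from the authors' deposited tables, with the number of genes measured in white fat in parentheses. In white fat the 60S, 40S and P stalk genes lie near -1.2 and the lymphocyte markers between quartiles of -9.98 and -5.59, while in brown fat all 3 classes of core members lie near 0.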

How the data were processed

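RNA of inguinal white fat was sequenced in 12 libraries (4 groups of 3). The submitters' processing notes name featureCounts, limma and GRCm39. The sources used here give no versions, aligner, strand setting, normalization or treatment of reads that match several genes. Per the file headers, the authors deposited for each depot the log2 interaction and the mean log2 expression of each gene, limma's moderated t-statistic (a score with no fixed range), the p-value and its adjusted form. No brown fat library is among the labels, and that table serves as the authors' own comparison.

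Columns of library values (48 in all, 12 in each of 4 tables) match no label and were used in no step, so depth, values per library and the planned limma fit on library values are not reported. Dividing each log2 interaction by its t gave the standard errors, and intervals used the total degrees of freedom that t and p imply (13.4 in white fat, 33.9 in brown fat). The deposited adjusted p was checked to equal Benjamini-Hochberg adjustment. The white minus brown difference of the interactions was divided by its error, with Welch-Satterthwaite degrees of freedom, two-sided, adjusted over all 14687 shared genes, in a script tested on simulated data.

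Coding sequences, identities (global alignment, Biopython 1.88) and shared 50-base words came from GENCODE M21 on GRCm38, an older build than the files', and were used for sequence only. The principal isoform was taken, and all 88 members matched by gene ID. Windows at starts came from RefSeq (GRCm38.p6), which matched 64 members by symbol, and were searched on the strand of the gene. Scripts ran in Python 3.11.15 with scipy 1.17.1, pandas 2.3.3, matplotlib 3.10.9 and numpy 2.4.6.

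The members, lists and tests were chosen with earlier results of these data known. Named are all paralog pairs, the members with the 5 smallest p and 5 highest means in each table, those on the other side of 0 from the median or more than 3 scaled median absolute deviations from it, the 5 smallest p of the depot difference, a fixed set (Rplp0, Rplp1, Rplp2, Rpsa, Rps27a, Rpl5, Rpl11, Rps6, Fau, Rack1) and 3 genes of each list. Beyond these, Rpl12, Rpl13a, Rpl29, Rpl15, Rpl35, Rpl27a, Rps2 and Ighm were named in white fat after their values were seen. Single values of 3 members are not reported here, although all counts and medians hold them. In brown fat the 43 members above 0 are given by their count and largest values. Alternatives were a threshold of 0.10, a minimum mean expression of log2 of 10, only protein-coding genes, values relative to the median of all genes, adding Fau and Rack1, core members only (added after seeing the data) and, between depots, the smaller degrees of freedom.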

Additional observations from a re-analysis of the deposited data

Results flagged for a closer look

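For 11 ribosomal protein genes reported here the interaction of genotype and sex differed between white and brown fat by a test of the difference itself (errors from the authors' limma fits, adjusted over 14687 genes). White fat was below brown fat in each, and 0.231% of all genes were called in either direction. For 6 genes of the 40S subunit the difference was -2.42 (Rps16), -1.95 (Rps18), -1.92 (Rps27a), -1.84 (Rps7), -1.41 (Rps26) and -1.34 (Rps21). For 5 genes of the 60S subunit it was -1.90 (Rpl35a), -1.80 (Rpl23), -1.79 (Rpl5), -1.68 (Rpl37a) and -1.54 (Rpl37). The adjusted p ran from 0.0108 (Rpl23) to 0.0499 (Rpl35a). With the smaller of the degrees of freedom of both tables none of these differences passed, and the smallest adjusted p was 0.205.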

How the results depend on the processing

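In white fat the count of 54 members past the test became 67 at a threshold of 0.10, 58 with the expression filter, 57 among protein-coding genes, 64 relative to the median of all genes, 56 with Fau and Rack1 added and 54 in the core alone. At 0.10, 12.1% of all genes passed in white fat. Shares over all genes under the other white fat settings are not given here. In brown fat the count was 0 under each of these 6 settings. The 12 members whose depots differed became 24 relative to the median of all genes of each table, 36 at a threshold of 0.10 and 17 among protein-coding genes. They were 12 in the core alone and 0 with the smaller degrees of freedom, where a larger p follows from the construction. Calls between depots over all genes rose too, from 34 to 58 relative to the medians, 235 at 0.10 and 51 among protein-coding genes. With the smaller degrees of freedom 0 genes were called. Signs turned for a pair of genes in brown fat relative to the median of all genes, Rplp1 to -0.003353 and Rps29 to -0.007276. The alternatives that need values per library (leaving out a library, pseudocounts, filters) were not run. No paired analysis was possible because the columns of library values match no label. Depth is unknown, and members with a low mean expression have the widest intervals.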
